A study of Mus musculus with 4 samples.

Results

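The genes described here are the plasma membrane and lysosomal amino acid transporters of the solute carrier families Slc1, Slc3, Slc6, Slc7, Slc36, Slc38 and Slc43 in mouse liver. They were chosen by gene symbol alone: every symbol of the array annotation that begins with one of these family names was taken, except Slc7a2. The rule found 61 of the 21260 symbols on the array, carried by 109 probes, and 59 of them could be tested. Slc6a5 and Slc6a19, carriers of glycine and of neutral amino acids in nerve tissue and in intestine and kidney, were not well above background on any 3 arrays of a channel and have no ratio here. Of the 61, 1 is no transporter: Slc7a6os is the neighbour of Slc7a6 on the opposite DNA strand and encodes a nuclear import factor of RNA polymerase II. Some carriers of Slc6 also move substances other than amino acids, such as betaine, creatine and the monoamine transmitters, and they were kept as the rule has them.

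The livers came from C57Bl/6 males 3 months old. The Wrn mutants, which carry an altered Wrn protein (a RecQ-type DNA helicase), had received 0.4% vitamin C in their drinking water from weaning onward, and the wild-type males were untreated. RNA of 1 mutant (Cy5) and 1 wild type (Cy3) was hybridised to each of 4 dual-colour Agilent arrays, and the labels call the 4 pairs biological replicates. Dyes were not swapped, and untreated mutants and treated wild types were not analysed here. The genotype, the treatment and the dye therefore cannot be told apart in any ratio. Ratios are log2 of mutant over wild type after loess normalization, errors are the SD over the 4 arrays, and a gene was called higher or lower where limma's p, adjusted by Benjamini-Hochberg over all 26114 genes tested, was under 0.05. Levels are log2 intensities of 1 channel, are open to dye bias and are compared only within a probe. Where the intensities of a marker list are summed, the sum follows its brightest probes most.

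Hepatocytes take up amino acids for protein synthesis, gluconeogenesis and urea formation. Sodium-coupled carriers of system A (Slc38a1, Slc38a2 and Slc38a4) and system N (Slc38a3 and Slc38a5) concentrate alanine, glutamine and related neutral amino acids, and exchangers made of an Slc3 heavy chain and an Slc7 light chain trade one amino acid for another. Many of these genes answer to amino acid shortage through the transcription factor ATF4, and Slc38a2 is a well-known case. Several carriers are also zoned along the liver lobule: Slc1a2, a glutamate carrier, lies in the perivenous hepatocytes that make glutamine.

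Of the 59 genes tested, 3 were higher (5.08%, against 6.64% of all genes) and 6 were lower (10.2%, against 5.57% of all genes) in the vitamin C-treated mutants. The higher genes were the light chains Slc7a12, Slc7a13 and Slc7a5. The lower ones were Slc38a2, Slc38a10, Slc1a2, Slc6a12, Slc43a3 and the non-transporter Slc7a6os; without the latter 5 of 58 (8.62%) were lower. The share of higher genes lies near the background and that of lower genes rests on 6 genes. In either direction 15.3% of these and 12.2% of all genes were called. An unadjusted p under 0.05 was reached by 19 of the 59 and by 8413 of all 26114 genes, against which the counts of unadjusted p below are to be read. The median ratio was 0.03 over the 59 genes and 0.01 over all genes. Among the called genes Slc38a2 differed most, at 1.44-fold, followed by Slc38a10 at 1.25-fold.

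**Figure D1:**
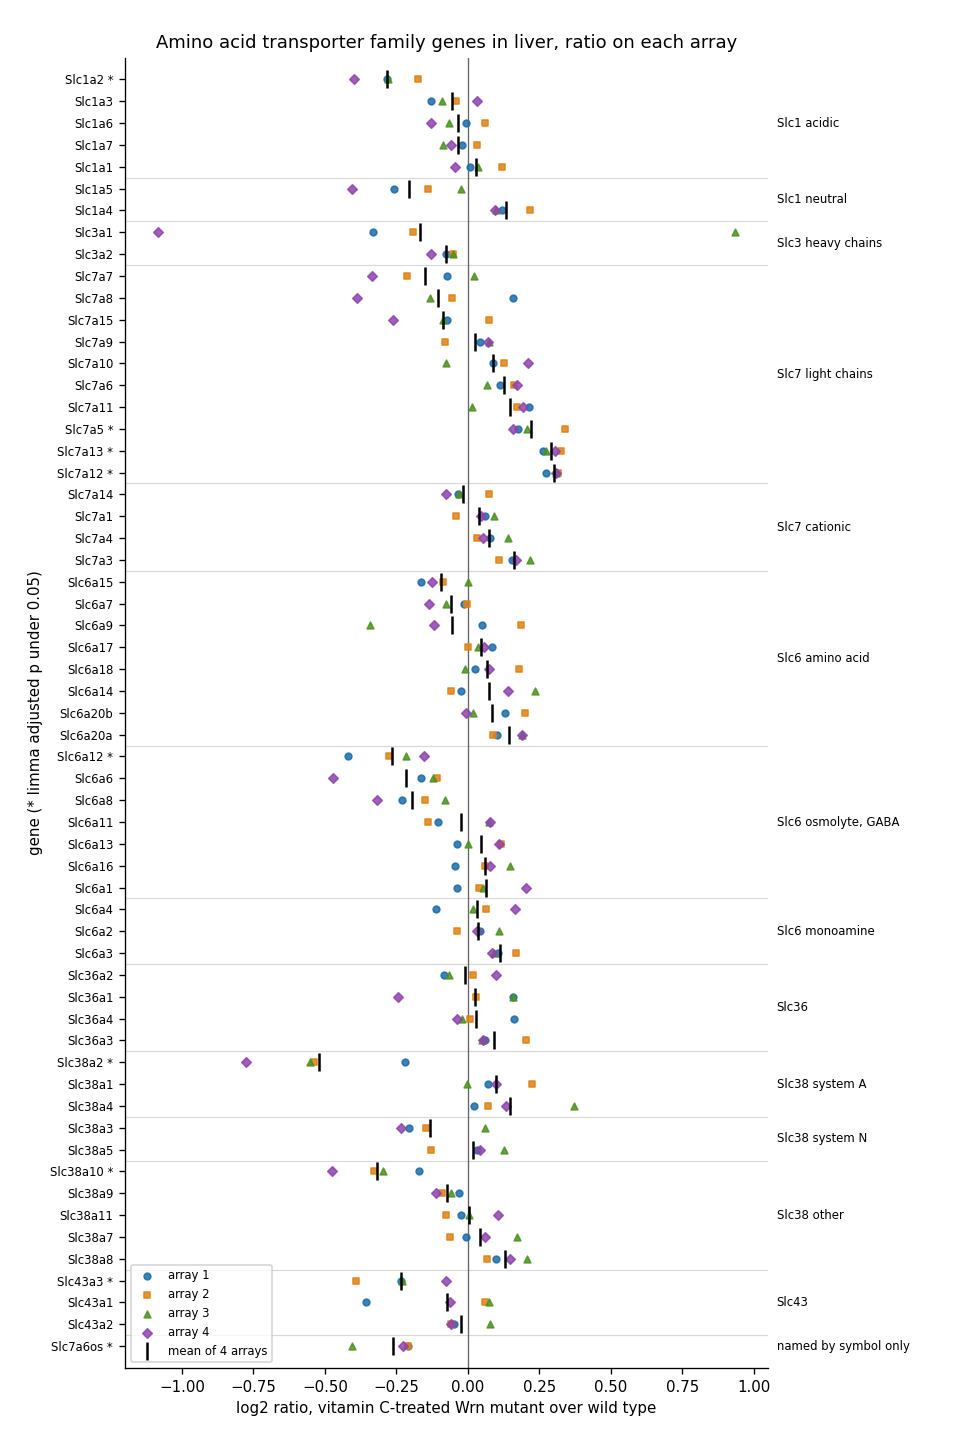
Log2 ratio of vitamin C-treated Wrn mutant over wild type (x axis) for the 59 tested genes (y axis), grouped by role; symbols are the 4 arrays, black bars the means, and asterisks mark adjusted p under 0.05. Most means lie close to 0, Slc38a2 is farthest to the left with a mean of -0.52, and the 4 ratios of Slc3a1 run from -1.08 to 0.93.

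Since different probes of a gene can give different values, the probes behind 3 of the called genes are shown first. For Slc38a2 the array holds 4 probes of 60 bases, of which the first 30 bases are printed in lower case, 5′ to 3′, from the deposited annotation; no part is marked.
A_51_P458384: aaggttccaaatgaatttcaggccaaattc
A_51_P199314: tgtgacagttgagaaattttggttagttga
A_52_P459046: caaagaatagtgttacttttagatttcaaa
A_52_P676686: ttgaatgtgcctaacggaaccattcgatgt
The 4 probes share no run longer than 7 bases, so they read different stretches of sequence. The brightest, A_51_P458384, stands for the gene.

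The probes of Slc1a2, whose values disagreed in size, and of Slc7a13, whose values disagreed in sign, are printed in the same way.
A_52_P168496 (Slc1a2, brightest): aaatgaccaagacgcagtccatttacgacg
A_51_P477875 (Slc1a2): gatgagtgcaaggtacctttcccattcctg
A_51_P179878 (Slc1a2): tgatggaaataacctgtgaattcaatcttt
A_52_P178651 (Slc1a2): acaacgagcacacatgtgctgtcttcctta
A_52_P652119 (Slc7a13, brightest): cccagaggtctctcagttaatagaagctat
A_51_P208160 (Slc7a13): ccatactgtgttccagataaaggttaagtg
The longest run that 2 probes of a gene share is 7 bases in Slc1a2 and 6 in Slc7a13. Where each probe lies in its transcript was not analysed here.

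Slc38a2, also called SNAT2, is the system A carrier whose transcript rises when cells lack amino acids or are placed in hypertonic medium. Its ratios on arrays 1, 2, 3 and 4 were -0.22, -0.54, -0.55 and -0.78. The levels were 14.31, 14.08, 14.15 and 14.08 in the mutants and 14.53, 14.62, 14.70 and 14.86 in the wild types. The highest mutant thus lay below the lowest wild type, and array 1 had the smallest difference within a pair. The mean was -0.52 ± 0.23 (SD, n = 4; adjusted p = 0.0210). Its dimmer probes read -1.06 ± 0.30 (adjusted p = 0.00878 over all probes), -0.60 ± 0.18 (0.0113) and -0.35 ± 0.32 (0.0839). All 4 Slc38a2 probes were below 0 on all 4 arrays, and 3 of them passed. The call held with median centring in place of loess, at -0.26, and with the mean of the probes, at -0.63. It held without replicate 1 (adjusted p = 0.0373) and not without replicate 2 (0.0805), 3 (0.0514) or 4 (0.0545).

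The other system A carriers did not pass. Slc38a4, the form enriched in liver, had ratios of 0.02, 0.07, 0.37 and 0.13, a mean of 0.15 ± 0.15 (adjusted p = 0.170), and a second probe at 0.08. Slc38a1 was at 0.10 ± 0.09, and 4 dimmer probes of it read 0.09, -0.03, -0.05 and -0.09. In system N, Slc38a3, the main glutamine carrier of hepatocytes, was at -0.13 ± 0.13 (adjusted p = 0.182) and Slc38a5 at 0.02 ± 0.11. The values of Slc38a3 and Slc38a4 turned on the normalization: with median centring they were 0.33 and 0.58 and both were called higher, so the sign of Slc38a3 flipped. Among the remaining Slc38 genes, Slc38a9, the lysosomal arginine sensor of mTORC1, was at -0.07 ± 0.03 and Slc38a7, a lysosomal glutamine exporter, at 0.04 ± 0.10, and neither passed. Dimmer probes of Slc38a9 read -0.31 ± 0.24 (adjusted p = 0.0655 over all probes), -0.29 ± 0.20 (0.0533) and 0.00 ± 0.14 (0.997). The first of these was well above background on 2 arrays in the mutant channel and 3 in the wild-type channel, and the last on 3 in each.

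Slc38a10, a less studied relative of these carriers, was lower. Its ratios were -0.17, -0.33, -0.30 and -0.48, with levels of 14.25, 14.04, 14.04 and 14.08 in the mutants against 14.42, 14.37, 14.34 and 14.56 in the wild types. All mutants lay below all wild types. The mean was -0.32 ± 0.13 (SD, n = 4; adjusted p = 0.0245), but a second probe gave -0.05 ± 0.14, and with the mean of both probes (-0.19, adjusted p = 0.0698) or with median centring (-0.08) the call was lost.

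**Figure D2:**
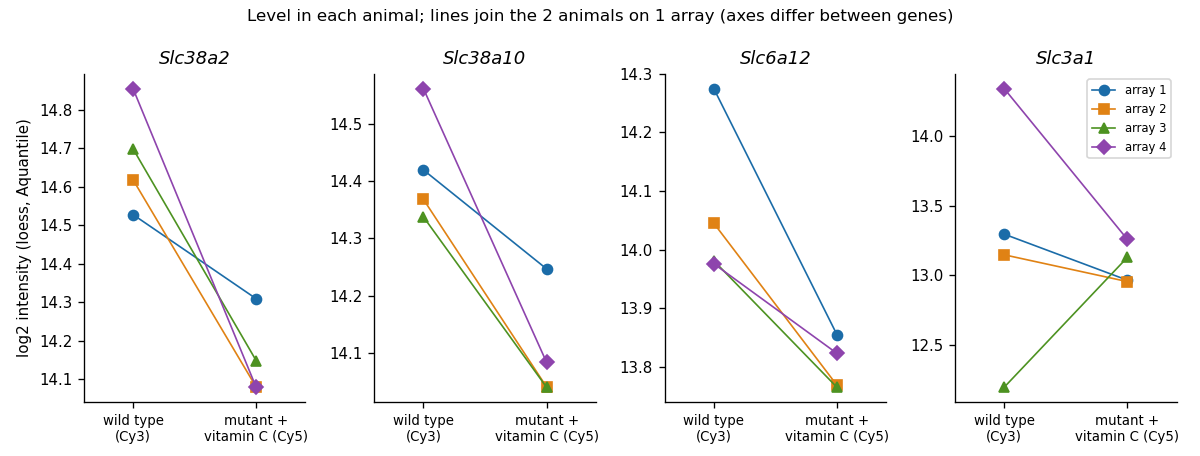
Log2 intensity (y axis, a different range for each gene) in the 4 wild-type and 4 mutant animals (x axis) for Slc38a2, Slc38a10, Slc6a12 and Slc3a1, with lines joining the animals of 1 array. In the first 3 genes the mutants lie below the wild types without overlap; in Slc3a1 the wild types run over 2.15 log2 units and the mutants over 0.30.

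Slc1a2 encodes the glutamate carrier GLT-1. Its ratios of -0.28, -0.18, -0.28 and -0.40 were below 0 on every array, with a mean of -0.28 ± 0.09 (SD, n = 4; adjusted p = 0.0231). The levels were 12.18, 12.71, 12.79 and 12.58 in the mutants and 12.46, 12.89, 13.07 and 12.98 in the wild types, so the groups overlapped and the difference lay within the pairs. Array 1 was the lowest in both channels. Its dimmer probes read -0.42 ± 0.10 (adjusted p = 0.0116 over all probes), -0.19 ± 0.22 (0.160) and -0.02 ± 0.06 (0.772). The call was lost with median centring, at -0.17 (adjusted p = 0.0583).

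Of the other glutamate and aspartate carriers none passed in limma (0 of 4, and 0 with an unadjusted p under 0.05). Slc1a1, Slc1a3, Slc1a6 and Slc1a7 had means from -0.06 to 0.03. A dimmer probe of Slc1a1 was higher, at 0.27 ± 0.06 (adjusted p = 0.0203 over all probes), while the brightest was at 0.03 ± 0.07. The dimmer probe was well above background on only 3 arrays in each channel, the brightest on all 4. The neutral exchangers of Slc1 lay on either side of 0: Slc1a5, a glutamine exchanger, was at -0.21 ± 0.16 (adjusted p = 0.0885) and Slc1a4, which carries serine and alanine, at 0.13 ± 0.06 (adjusted p = 0.0929). With median centring Slc1a4 was called higher, at 0.18.

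All 3 genes called higher were light chains of the heteromeric exchangers. Of the 10 light chains tested, 3 were higher and 0 lower, against 6.64% and 5.57% of all genes, and 5 had an unadjusted p under 0.05. Slc7a5, or LAT1, exchanges large neutral amino acids such as leucine and pairs with Slc3a2. Its ratios were 0.17, 0.34, 0.21 and 0.16, with a mean of 0.22 ± 0.08 (SD, n = 4; adjusted p = 0.0356), or 1.16-fold. With Agilent's processed signals it was at 0.14 and not called in limma (adjusted p = 0.272). Its levels ran from 10.19 to 11.25 in the mutants and from 10.01 to 10.94 in the wild types and overlapped. Array 1 was the lowest in both channels.

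Slc7a12 and Slc7a13 are light chains known from the kidney. Slc7a12, which carries small neutral amino acids, had ratios of 0.27, 0.32, 0.31 and 0.31, with a mean of 0.30 ± 0.02 (SD, n = 4; adjusted p = 0.0156). Slc7a13, which carries aspartate and glutamate, had ratios of 0.26, 0.33, 0.27 and 0.30, with a mean of 0.29 ± 0.03 (adjusted p = 0.0162). Their spreads were the smallest among the 9 called genes. With Agilent's processed signals Slc7a12 was at 0.21 (adjusted p = 0.101) and Slc7a13 at 0.20 (0.104) in limma, and neither was called. In Slc7a13 the second probe gave -0.05 ± 0.08 (adjusted p = 0.554 over all probes), and the mean of both probes did not pass, at 0.12 (adjusted p = 0.0886). The second probe was well above background on only 3 arrays in each channel, the brightest on all 4. Both channels of Slc7a13 overlapped, with 8.85 to 9.32 in the mutants and 8.55 to 9.06 in the wild types, and so did those of Slc7a12. Of 10 kidney tubule markers 1 was higher, Cdh16 at 0.28 ± 0.07, and 1 lower, Slc5a2 at -0.22 ± 0.11. These are 10% each, against 6.64% and 5.57% of all genes. The log2 of the summed intensity of these markers ran from 13.57 to 13.86 in the mutants and from 13.54 to 13.87 in the wild types; the part of kidney RNA in the ratios was not tested.

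The heavy chains did not pass. Slc3a2, the 4F2 heavy chain, was at -0.08 ± 0.04 (adjusted p = 0.243), with a second probe at -0.04 and a value of 0.08, the opposite sign, with median centring. Slc3a1, the heavy chain rBAT of the cystine exchanger, varied most of all 59 genes. Its ratios were -0.33, -0.19, 0.93 and -1.08, with a mean of -0.17 ± 0.83 (adjusted p = 0.714). The mutants had levels of 12.97, 12.96, 13.13 and 13.26, and the wild types 13.30, 13.15, 12.20 and 14.34. The spread thus lay in the wild types, where the animal of array 3 was the lowest and that of array 4 the highest. The levels of the acute phase genes Lcn2 and Saa1 were highest in the wild type of array 4: in the wild types of arrays 1 to 4 Lcn2 was at 8.79, 9.27, 8.96 and 15.5, and Saa1 at 15.4, 16.4, 17.5 and 19.8. In the mutants of arrays 1 to 4 Lcn2 was at 8.44, 8.45, 8.84 and 12.3, and Saa1 at 14.5, 14.0, 15.1 and 15.6. Both genes were thus highest on array 4 in either channel. The wild type of array 4 also had the highest wild-type levels of Slc38a2 and Slc38a10, and array 4 the largest ratios of both. Of the other genes called lower, Slc6a12 and Slc43a3 had their smallest ratios and lowest wild-type levels on array 4. Slc1a2 had its largest ratio on array 4 and its highest wild-type level on array 3, and Slc7a6os had both on array 3. The part of the acute phase difference in these values was not tested; without replicate 4 Slc38a2 was at -0.44 and Slc38a10 at -0.27. Without replicate 4 the mean of Slc3a1 was 0.14.

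The other light chains had means between -0.15 and 0.15. Slc7a11, the cystine and glutamate exchanger of glutathione supply, was at 0.15 ± 0.09 (adjusted p = 0.0956; dimmer probes at 0.11, -0.01 and -0.07), Slc7a6 at 0.13 ± 0.05 (0.0943), Slc7a7 at -0.15 ± 0.16 (0.170) and Slc7a8, or LAT2, at -0.10 ± 0.23. Of the 4 cationic carriers none was called (1 had an unadjusted p under 0.05 in limma). Slc7a3 lay just outside the threshold, at 0.16 ± 0.04 (adjusted p = 0.0527), and Slc7a1 had a mean of 0.04 ± 0.06, while a dimmer probe of it was higher, at 0.20 ± 0.05 (adjusted p = 0.0362 over all probes). Slc7a2, the arginine carrier of hepatocytes that the rule leaves out, stood far from its relatives: its ratios were -1.86, -1.45, -1.22 and -1.29, with no overlap between the channels.

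Among the Slc6 carriers of osmolytes, GABA and creatine 1 of 7 was lower (14.3%, against 5.57% of all genes), a share that rests on 1 gene. Slc6a12, or BGT1, carries betaine and GABA. Its ratios were -0.42, -0.28, -0.22 and -0.15, with levels of 13.86, 13.77, 13.77 and 13.82 in the mutants against 14.27, 14.05, 13.98 and 13.98 in the wild types. The groups did not overlap, and the wild type of array 1 stood highest. The mean was -0.27 ± 0.11 (SD, n = 4; adjusted p = 0.0317), which fell to -0.06 with median centring (adjusted p = 0.605), so the call was lost there. The creatine carrier Slc6a8 lay just outside, at -0.19 ± 0.10 (adjusted p = 0.0560), and the taurine carrier Slc6a6 was at -0.22 ± 0.17 (0.0850), with another probe at 0.05. Slc6a13, the liver's GABA and taurine carrier GAT2, was at 0.05 ± 0.08, but with median centring it was called higher at 0.45, and with Agilent's processed signals it turned to -0.05. A dimmer probe of Slc6a11 was higher, at 0.24 ± 0.11 (adjusted p = 0.0374 over all probes), while the brightest was at -0.02 ± 0.12 and was not called.

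None of the 8 Slc6 carriers of amino acids was called in limma (1 had an unadjusted p under 0.05), with means from -0.09 to 0.14; the proline carrier Slc6a20a was at 0.14 ± 0.06 (adjusted p = 0.0769). None of the 3 monoamine carriers was called (1 with an unadjusted p under 0.05), with means from 0.03 to 0.11. The 4 Slc36 carriers, which move small amino acids together with protons, had means from -0.01 to 0.09, none was called and 0 had an unadjusted p under 0.05. Slc36a1, the lysosomal form, was at 0.03 ± 0.19, and a dimmer probe at 0.18 ± 0.07 (adjusted p = 0.0539 over all probes).

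Of the Slc43 genes 1 of 3 was lower (33.3%, against 5.57% of all genes), a share that rests on 1 gene. Slc43a3, which carries purine nucleobases rather than amino acids, had ratios of -0.23, -0.39, -0.23 and -0.08 and a mean of -0.23 ± 0.13 (SD, n = 4; adjusted p = 0.0491). It lay just inside the threshold, its levels ran from 12.57 to 12.82 in the mutants and from 12.66 to 13.05 in the wild types and overlapped, and in the authors' deposited table its adjusted p was 0.0673. With median centring it was at -0.12 (adjusted p = 0.273) and the call was lost. Slc43a1 and Slc43a2, the leucine-type carriers LAT3 and LAT4, were at -0.07 ± 0.20 and -0.02 ± 0.07. Slc7a6os was lower, with ratios of -0.21, -0.21, -0.40 and -0.23 and a mean of -0.26 ± 0.10 (adjusted p = 0.0282), whereas its neighbour Slc7a6 did not pass.

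**Figure D3:**
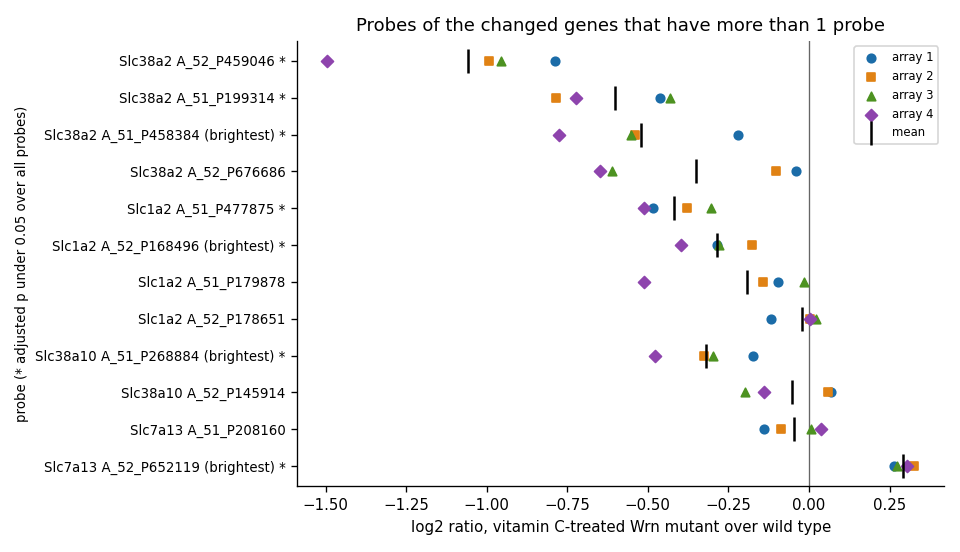
Log2 ratio (x axis) of each probe (y axis) of the called genes that have more than 1 probe; symbols are the 4 arrays, black bars the means, and asterisks mark adjusted p under 0.05 over all probes. The Slc38a2 probes all lie left of 0, with means from -1.06 to -0.35, while the Slc7a13 probes have means of 0.29 and -0.05.

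Over all 101 probes of these genes that passed the filter, 6 were higher and 9 lower. Of all probes 6.19% were higher, 6.8% lower and 13% either. No gene had probes called in both directions, and 27 genes had more than 1 probe. Of the 9 called genes 5 have a single probe, namely Slc7a12, Slc7a6os, Slc6a12, Slc7a5 and Slc43a3, and have no second reading. The channels of 3 genes (Slc38a2, Slc38a10 and Slc6a12) did not overlap with the mutants lower, against 4.22% of all genes, and 0 did so with the mutants higher, against 3.29%. Ratios were below 0 on every array in 12 genes (16.8% of all genes) and above 0 in 14 (23.6% of all genes). The spread over the arrays had a median SD of 0.084, against 0.104 over all genes. Of the 9 called genes 8 also had an adjusted p under 0.05 in the same direction in the authors' deposited table.

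Among the 19 carriers named in textbooks for the liver, 1 was higher (Slc7a5; 5.26%, against 6.64% of all genes), 3 were lower (Slc38a2, Slc1a2 and Slc6a12; 15.8%, against 5.57%) and 15 did not pass, with a median ratio of -0.02. With median centring 5 of the 19 were higher and 1 lower. Across all 59 genes median centring gave 7 higher and 2 lower, and over all genes 3416 higher and 1507 lower, against 1734 and 1455 with loess. Slc7a5, Slc7a12, Slc7a13, Slc38a2 and Slc7a6os were called in the same direction by both. Of the 9 calls 1 held without replicate 1, 0 without replicate 2, 2 without replicate 3 and 0 without replicate 4. Calls over all genes fell in the same settings. They were 212 higher and 295 lower without replicate 1, and 20 and 29 without replicate 2. Without replicate 3 they were 657 and 683, and without replicate 4 they were 227 and 235.

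**Figure D4:**
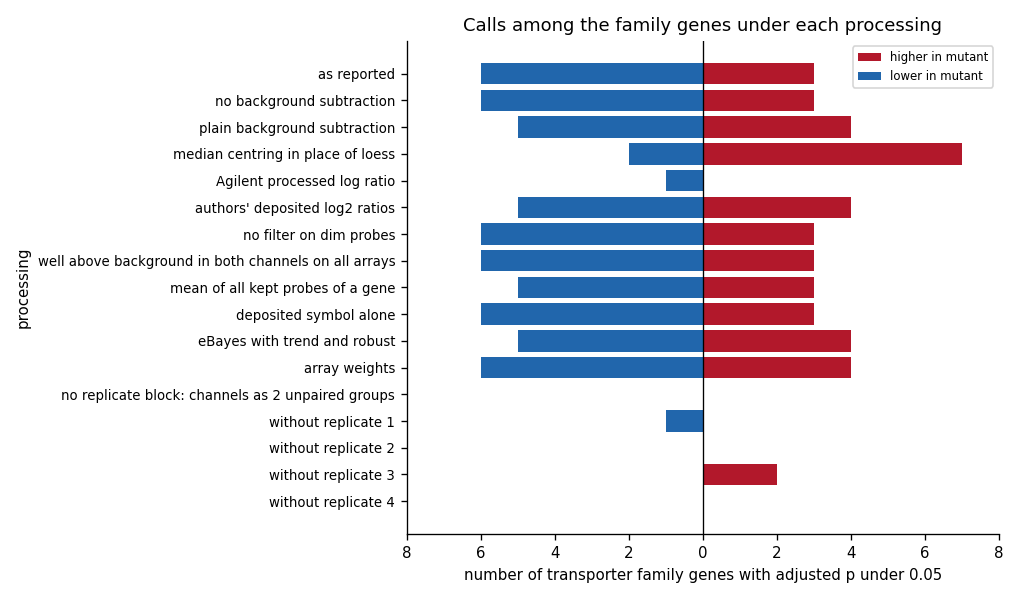
Number of the 59 genes called higher (red, to the right) and lower (blue, to the left) in the mutants (x axis) under each processing (y axis). The reported processing gives 3 and 6, median centring 7 and 2, and leaving out 1 array between 0 and 2 in all.

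ATF4 drives the amino acid response when amino acids are short. Of 28 genes of this response 2 were higher and 5 lower (7.14% and 17.9%, against 6.64% and 5.57% of all genes), and 21 did not pass, with a median ratio of -0.10 against 0.01 over all genes. The lower ones were led by Ppp1r15a, the phosphatase subunit that ends the stress response, at -0.57 ± 0.28 (adjusted p = 0.0244), the pseudokinase Trib3 at -0.52 ± 0.25 (0.0233) and the asparaginyl-tRNA synthetase Nars at -0.46 ± 0.04 (0.00795). The ratios of Nars were -0.43, -0.45, -0.43 and -0.51, without overlap between the channels. The higher ones were Ddit4, an inhibitor of mTORC1, at 0.44 ± 0.25 (0.0324) and Psph, the last enzyme of serine synthesis, at 0.43 ± 0.07 (0.0111). Asns, the asparagine synthetase, did not pass, at 0.14 ± 0.56, nor did Atf4 itself, at -0.34 ± 0.32 (adjusted p = 0.0962). When the probes of each gene were averaged, 3 of the list were lower, and Trib3 was not among them (adjusted p = 0.0712).

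Amino acids inside the cell are read by the mTORC1 pathway at the lysosome. Of 31 such genes 4 were higher and 1 lower (12.9% and 3.23%, against 6.64% and 5.57% of all genes), with a median of 0.02. The higher ones were led by Fnip2, part of the folliculin complex, at 0.35 ± 0.05 (adjusted p = 0.0132), the leucine sensor relative Sesn3 at 0.24 ± 0.08 (0.0309) and the arginine sensor Castor1 at 0.23 ± 0.08 (0.0319). Rragc, a Rag GTPase, was lower at -0.20 ± 0.09 (0.0494). With median centring 7 were higher and 0 lower, against 13.1% and 5.77% of all genes in that setting. When probes were averaged Sesn3 (adjusted p = 0.373) and Rragc (0.159) did not pass.

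Of 20 other amino acid and peptide carriers 2 were higher and 3 lower (10% and 15%, against 6.64% and 5.57% of all genes). The higher ones were the lysosomal histidine and peptide carrier Slc15a4 at 0.38 ± 0.10 (adjusted p = 0.0156) and the vesicular GABA carrier Slc32a1 at 0.30 ± 0.10 (0.0227). Besides Slc7a2, the lower ones were the mitochondrial aspartate and glutamate carriers Slc25a13, at -0.23 ± 0.09 (0.0358), and Slc25a12, at -0.19 ± 0.06 (0.0427). The sign of Slc25a13 flipped to 0.05 with median centring, and that of Slc25a12 to 0.04 with the mean of its probes.

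Of the 15 enzymes of glutamine and glutamate metabolism 1 was higher (6.67%, against 6.64% of all genes) and 0 lower. The higher one was Gls2, the liver glutaminase, at 0.32 ± 0.20 (adjusted p = 0.0443). Its ratios were 0.12, 0.20, 0.56 and 0.42. Glul, the perivenous glutamine synthetase, did not pass, at -0.23 ± 0.22 (0.113). With median centring 6 of these enzymes were higher, against 13.1% of all genes in that setting.

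Slc1a2 is also 1 of 12 genes listed for perivenous hepatocytes, with a median of -0.21. Of these 1 was higher and 4 lower (8.33% and 33.3%, against 6.64% and 5.57% of all genes). The others lower were the transcription factor Tbx3 at -0.90 ± 0.06 (adjusted p = 0.00197; -0.37 with its probes averaged), the Wnt target Axin2 at -0.47 ± 0.14 (0.0140) and the cytochrome Cyp1a2 at -0.42 ± 0.22 (0.0299), (0.0550 with its probes averaged), and Rgn was higher at 0.42 ± 0.20 (0.0242). Of 11 periportal genes 2 were higher (18.2%, against 6.64% of all genes) and 0 lower, with a median of 0.27. The higher ones were the histidine ammonia-lyase gene Hal at 0.52 ± 0.24 (0.0216) and Gls2. With median centring 2 perivenous genes were lower and 9 periportal genes higher, against 5.77% of all genes lower and 13.1% higher there. The log2 summed intensity of the perivenous list ran from 18.95 to 19.13 in the mutants and from 18.91 to 19.10 in the wild types. That of the periportal list ran from 19.66 to 19.80 and from 19.22 to 19.78. Both sums follow the brightest genes of their list most.

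In bulk liver RNA fewer cells of a type and less RNA per cell cannot be told apart, so the levels of cell type markers are given beside these values. The counts of called markers are to be read against 6.64% of all genes higher and 5.57% lower. All 12 hepatocyte markers were well above background in both channels of all arrays. Of them 5 were higher, led by Alb at 0.85 ± 0.21, Apoa2 at 0.84 ± 0.18 and Tat at 0.54 ± 0.26, and 1, Hnf4a at -0.25 ± 0.10, was lower. Their summed level, which follows the brightest markers most, ran from 20.97 to 21.10 in the mutants. In the wild types it ran from 20.52 to 20.78, without overlap. Sinusoidal endothelial markers had 0 higher and 3 lower of 12 (Clec4g at -0.35 ± 0.20, Kdr at -0.24 ± 0.09 and Vwf at -0.23 ± 0.07), with summed levels of 15.80 to 15.92 against 15.98 to 16.21. Stellate and fibroblast markers had 3 lower of 12 (Col3a1 at -0.51 ± 0.15, Col1a2 at -0.37 ± 0.07 and Col1a1 at -0.34 ± 0.17), with 16.22 to 16.35 against 16.27 to 16.51. Of 12 cholangiocyte markers Spp1, at -0.63 ± 0.32, and Sox9, at -0.58 ± 0.37, were lower and Pkhd1, at 0.23 ± 0.07, higher, with 14.33 to 14.64 against 14.77 to 14.91. In each of the cell type lists at least 6 markers were well above background in both channels of all arrays.

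Of the Kupffer cell and macrophage (12), T and NK cell (11), neutrophil (8) and erythroid (7) markers 0 were called in limma, and 0, 1, 1 and 0 had an unadjusted p under 0.05. The smallest p in these lists were those of Adgre1 at 0.19 ± 0.34 and Vsig4 at 0.18 ± 0.33, Klrb1c at 0.11 ± 0.02 and Prf1 at 0.10 ± 0.07, S100a9 at -0.44 ± 0.36 and Elane at 0.11 ± 0.08, and Epb42 at 0.06 ± 0.06 and Slc4a1 at -0.08 ± 0.18. Of 8 B cell markers Ighm was higher at 0.20 ± 0.04 and Cd79b lower at -0.23 ± 0.04. Of 9 pancreatic acinar markers Ctrb1 was higher at 0.19 ± 0.08. The part of any of these cell types in the transporter ratios was not tested.

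Promoters were read because the amino acid response acts through a DNA element, which can lie inside or outside the promoter of a gene. RefSeq start sites of assembly GRCm38.p6 gave a promoter, 250 bases before to 50 after the start, for 42 of the 59 genes, some with several, and for 5 of the 9 called ones. The element TGATGNAA, bound by C/EBP and ATF proteins, was searched on both strands and occurs in 3.97% of 32851 promoters. It was found in 4 of the 62 promoters of these genes, which belong to 3 of the 42 genes, Slc1a4, Slc7a11 and Slc7a7. The Slc7a7 promoters that hold it overlap and share a match, so they are not separate findings. The element was found in 0 of the 5 called genes with a promoter. Slc7a11 holds it as a facing pair, in capitals here, at chr3:50443627-50443705, minus strand.
Slc7a11: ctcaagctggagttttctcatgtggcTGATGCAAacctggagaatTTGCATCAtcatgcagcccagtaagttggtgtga
The AP-1-like motif TGANTCA was searched with any base at its centre and occurs in 7.81% of promoters. It was found in 8 of the 62, and among the called genes in Slc38a10 and Slc6a12. In both of these the central base is T, and binding of AP-1 was not tested. The windows lie at chr11:120151485-120151543, minus strand, and chr6:121342490-121342548, plus strand, with the match in capitals.
Slc38a10: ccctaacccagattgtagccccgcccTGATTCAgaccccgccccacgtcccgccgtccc
Slc6a12: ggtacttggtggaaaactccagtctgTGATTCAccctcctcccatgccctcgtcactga
The E-box CACGTG, in 7.15% of promoters, was found in 9 of the 62 and in 0 of the called genes. A match, or the lack of one, describes letters in this window only. Sequence outside the window, introns among it, was not searched, so Slc38a2 and the other genes without a match may hold the element elsewhere.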

How the data were processed

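Liver RNA of 4 vitamin C-treated Wrn mutants (Cy5) and 4 wild types (Cy3) was measured on 4 arrays on 1 slide. Agilent Feature Extraction 10.5.1.1 read each spot's intensity, per the file headers, which name mm9 as the build of the design. Deposited per array are the median foreground and background intensity, and Agilent's log10 ratio of processed signals. The authors' deposited table holds a log2 ratio per array, its mean, a p-value and an adjusted p-value; its further statistics were not used, and 0 columns of sample values were left aside. The submitters' processing notes name limma. The authors' log2 ratios matched plain subtraction and loess with a slope of 1.

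Background was corrected by normexp (offset 50), ratios were normalized by loess with control spots at weight 0, outlier spots were removed and spots of a probe averaged, in R 4.3.3 with limma 3.58.1. Of 41174 probes 39083 were kept, being well above background on at least 3 arrays in a channel. The brightest probe stood for a gene. The mean ratio was tested against 0 with lmFit and eBayes and adjusted over 26114 genes. Per-channel levels followed Aquantile. Each ratio pairs the animals of 1 array. The number of arrays limits the precision: well above background were 82.5% to 95.6% of probes in the mutant channel and 84.2% to 96.1% in the wild-type channel, with array 1 lowest in both.

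The text gives every called gene with its probes, all textbook liver carriers, other genes by role, and up to 3 genes per list and direction, or else the 2 of smallest p. The members, lists and alternatives were chosen with earlier results of these data known. The procedure was tested on simulated data. Alternatives covered background, normalization, filter, probes, naming, moderation, weights, pairing, the authors' values and each array.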

Additional observations from a re-analysis of the deposited data

Results flagged for a closer look

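Of the 59 genes, 4 had 1 array whose log2 ratio stood apart from the other 3 by Dixon's criterion, which chance meets in about 1 of 20 groups. Slc36a3 was at 0.20 on array 2 and between 0.05 and 0.06 on the others. Slc43a2 was at 0.076 on array 3 and between -0.06 and -0.05 on the others. The taurine carrier Slc6a6 was at -0.47 on array 4 and between -0.17 and -0.11 on the others. Slc7a6os was at -0.40 on array 3 and between -0.23 and -0.21 on the others, with the same sign on all 4.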

How the results depend on the processing

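The counts of 3 higher and 6 lower genes became 7 and 2 with median centring, 0 and 1 with Agilent's processed signals (20 genes with an unadjusted p under 0.05 in limma), and 0 and 0 with no replicate block, that is with the pairing of the channels not modelled (3 genes with an unadjusted p under 0.05). Leaving out each array in turn gave 0 to 2 higher and 0 to 1 lower: Slc38a2 was called without replicate 1, Slc7a12 and Slc7a13 without replicate 3, and 0 genes without replicate 2 or 4, where 15 and 12 had an unadjusted p under 0.05. With fewer arrays the test has fewer degrees of freedom, and fewer of all genes were called too. Of all genes 0.812% were higher and 1.13% lower without replicate 1, against 0.0766% and 0.111% without replicate 2. The shares were 2.52% and 2.62% without replicate 3, and 0.869% and 0.9% without replicate 4. Agilent's processed signals gave 1.44% higher and 1.55% lower, no replicate block 0.0613% and 0.0306%, and median centring 13.1% and 5.77%. Under the other 9 alternatives 3 or 4 genes were higher and 5 or 6 lower. The gene still called with Agilent's processed signals was Slc38a2.

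Sign changes of values past the threshold in either setting were Slc38a3 at 0.33 (adjusted p = 0.0243) and Slc25a13 at 0.052 with median centring, and Slc25a12 at 0.039 with the mean of its probes; the cause was not tested. Over all alternatives the 59 genes gave 941 values: 60 lost a call, 9 gained one, 31 moved by more than their SD without a call, and 37 values, of 23 genes, changed sign. Among the latter were Slc3a2 and Slc6a9 at 0.08 and 0.20 with median centring, Slc6a13 at -0.05 with Agilent's signals and Slc3a1 at 0.14 without replicate 4, none of them called. For the 23 called genes of the pathway and zone lists 247 values kept their call and 118 lost it; the cell type markers were not run under the alternatives. With 4 arrays and no dye swap, the 9 calls had adjusted p from 0.0156 to 0.0491.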
